A study of Canis lupus familiaris with 4 samples.

Results

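The miR-29 family comprises miR-29a, miR-29b and miR-29c. It was measured by small RNA sequencing in extracellular vesicles (EVs) of 2 canine mammary carcinoma cell lines. The family was taken as every row of the deposited miRNA table named cfa-mir-29 with the letter a, b or c and an optional copy number. This gave 5 of 673 rows, namely cfa-mir-29a, cfa-mir-29b-1, cfa-mir-29b-2, cfa-mir-29c-1 and cfa-mir-29c-2. The copies of miR-29b had equal values in every library, as had the copies of miR-29c, so that the family was counted as 3 members. CHMp was established from the primary tumor and CHMm from the metastasis of the same dog. Their EVs are called pTDEs and mTDEs, respectively. Each cell line contributed 2 libraries, prepared from EVs that untreated cells released into serum-free medium. Each cell line stands for 1 tumor site of 1 animal. The study calls the replicates biological, without saying how they were separated, and the p-values measure the spread between these libraries only.

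miR-29 is known as a repressor of collagens, elastin, fibrillins and other matrix genes. Members share a seed, the bases that pair with target transcripts. Its loss is a known feature of fibrosis, and in mammary cancer it is studied for its effect on matrix remodeling and metastasis. Collagen and other target transcripts were not measured here, because the libraries hold small RNA only. By RefSeq's gene order on UU_Cfam_GSD_1.0, an assembly other than the authors' build, MIR29B-1 and MIR29A are direct neighbors, followed by KLF14. MIR29C-2 and MIR29B-2 are direct neighbors at another locus, and MIR29C-1 lies beside them with only the gene LOC609365 between MIR29C-1 and MIR29C-2. With equal values for the copies, the table does not tell the loci of miR-29b, or those of miR-29c, from each other.

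Levels are given as CPM, the reads of a row per 1000000 reads summed over all rows of the library, converted back from the deposited values and not scaled by length. From the worth of 1 read, the rows were inferred to sum to 6296519 (replicate 1) and 5053540 reads (replicate 2) in the pTDE libraries and to 3457171 and 2330384 reads in the mTDE libraries. With equal copies counted once, 91.6% to 95.2% of these sums remain. The most abundant row, cfa-mir-21, took 22.5% to 37.8% of a library. A row at 0 has 0 inferred reads. A floor of 3 reads, a fixed setting and not a limit seen in the values, is 0.476 to 1.29 CPM depending on the library. Every miR-29 row was above 0 in all 4 libraries. Intervals on reads are exact at 95%, and they reflect counting error alone, because copies made by PCR are not separate molecules. Forward and reverse reads were also merged by the authors, so a molecule may be counted from both ends and the intervals may be too narrow. Of the epithelial marker miRNAs (the miR-200 family, miR-203 and miR-205), the summed level was 73.9 and 104 CPM in the pTDE libraries but 23718 and 26413 CPM in the mTDE libraries. cfa-mir-200a, cfa-mir-200b, cfa-mir-141 and cfa-mir-429 were listed at 0 in both pTDE libraries, so these markers of the mammary epithelium were nearly absent from EVs of the primary line.

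miR-29a was one of the abundant miRNAs of both cell lines, and it made up almost the whole family. It reached 17698 CPM in pTDE replicate 1 and 12146 CPM in pTDE replicate 2. In mTDEs it was at 5254 CPM in replicate 1 and 26474 CPM in replicate 2. Both pTDE libraries thus lay between the mTDE libraries, which held the lowest and the highest level. By level it ranked 9 of 342 detected rows in pTDE replicate 1 and 15 of 347 in pTDE replicate 2. In mTDEs it ranked 28 of 306 detected rows in replicate 1 and 8 of 332 in replicate 2. In pTDE replicate 1, the rows next to it were cfa-mir-92a-2 (17897 CPM) above and cfa-let-7b (14733 CPM) below. In pTDE replicate 2 they were cfa-mir-155 (14316 CPM) and cfa-let-7g (9949 CPM). In mTDE replicate 1 it stood between cfa-mir-99b (5870 CPM) and cfa-mir-205 (5041 CPM), and in mTDE replicate 2 between cfa-mir-30d (30449 CPM) and cfa-mir-99a-1 (25710 CPM).

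miR-29b was found at a middling level in each library. It was at 68.9 CPM (434 reads, 95% interval 62.6 to 75.7 CPM) in pTDE replicate 1 and 31.3 CPM (158 reads, 26.6 to 36.5 CPM) in pTDE replicate 2. In mTDEs it was at 27.5 CPM (95 reads, 22.2 to 33.6 CPM) in replicate 1 and 60.6 CPM (141 reads, 50.9 to 71.4 CPM) in replicate 2. The order of the libraries alternated between the cell lines, with 1 high and 1 low library in each. The counting intervals of pTDE replicate 1 and mTDE replicate 2 overlapped, as did those of pTDE replicate 2 and mTDE replicate 1.

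miR-29c was the rarest member in every library. It was at 13.7 CPM (86 reads, 95% interval 10.9 to 16.9 CPM) in pTDE replicate 1 and 6.74 CPM (34 reads, 4.66 to 9.40 CPM) in pTDE replicate 2. In mTDEs it was at 5.78 CPM (20 reads, 3.53 to 8.93 CPM) in replicate 1 and 34.8 CPM (81 reads, 27.6 to 43.2 CPM) in replicate 2. As for miR-29a, the mTDE libraries held the lowest and the highest level, and the counting interval of the highest lay above those of the other 3 libraries. Because mature miR-29c is nearly identical to the far more abundant miR-29a, and the handling of reads that fit both is not given in the sources used here, its level is uncertain.

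**Figure D1:**
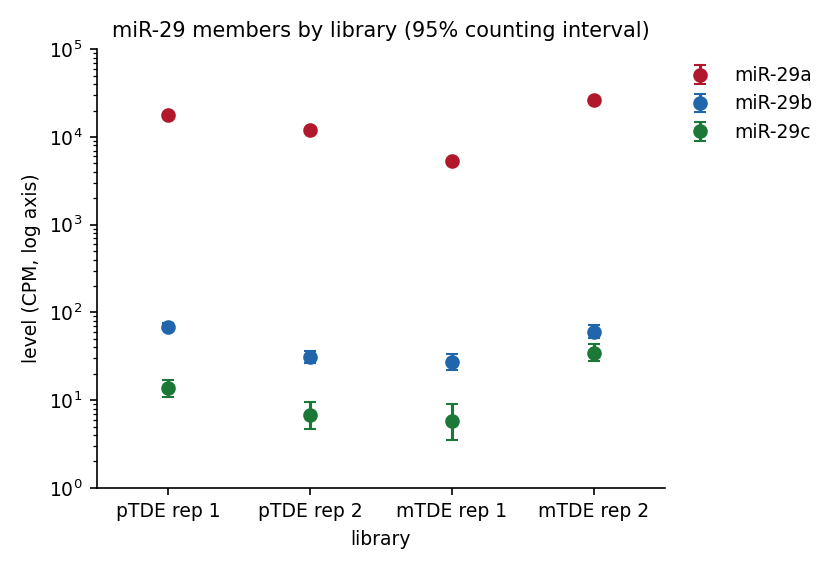
Level of each miR-29 member in each library, in CPM on a log axis, with 95% counting intervals as bars where they exceed the symbol. miR-29a lies between 5254 and 26474 CPM, miR-29b between 27.5 and 68.9 CPM and miR-29c between 5.78 and 34.8 CPM, and in none of them do the cell lines separate.

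The family as a whole, with copies counted once, took 1.78% of the CPM in pTDE replicate 1 and 1.22% in pTDE replicate 2. In mTDEs it took 0.529% in replicate 1 and 2.66% in replicate 2. The mean share was 1.50% ± 0.396 (SD, n = 2) in pTDEs and 1.59% ± 1.50 (SD, n = 2) in mTDEs, so the means differed by less than the spread in either cell line. Which mean was higher depended on the scaling, with 2.26% in pTDEs and 2.08% in mTDEs of the CPM without cfa-mir-21. miR-29a accounted for 99.5% and 99.7% of the family in the pTDE libraries and for 99.4% and 99.6% in the mTDE libraries. miR-29b and miR-29c together made up the other 0.312% to 0.629%. This composition rests on the conversion to CPM. In pTDE replicate 1, for example, the deposited values were 6989 for miR-29a, 3035 for miR-29b and 1919 for miR-29c. To set this beside other miRNAs, the 20 miRNA numbers with at least 2 lettered members above 0 in all libraries were compared by the share of their most abundant member, as a description. Lettered members at 0 in any library were left out, and with them whole numbers such as miR-200. More one-sided groups may therefore be missing from the comparison. The mean share of 99.6% held by miR-29a ranked 1 of 20. The nearest were miR-10b in the miR-10 group with 99.3% and miR-15b in the miR-15 group with 97.5%, and the ranges of miR-10b and miR-29a over the libraries overlapped. The lowest was miR-181b, which held 47.2% of the miR-181 group.

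**Figure D2:**
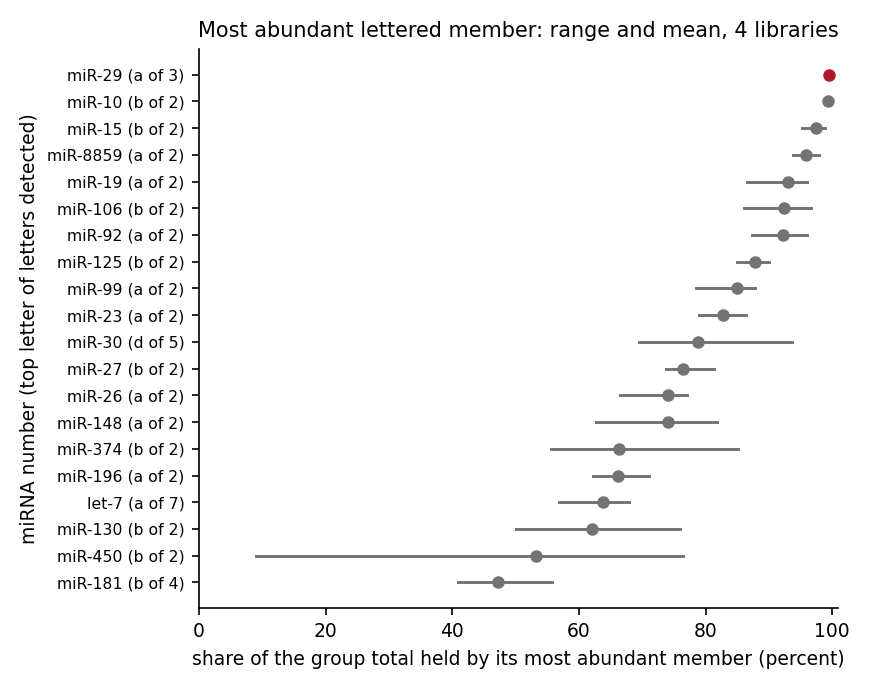
Share of the summed CPM of a miRNA number held by its most abundant lettered member, in percent, for the 20 numbers with at least 2 letters above 0 in all libraries. Points are means over the 4 libraries and lines run from the lowest to the highest library, and miR-29 (red) stands at the top with a line from 99.4% to 99.7%.

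The neighboring genes of the family did not give similar read numbers. miR-29a exceeded miR-29b, whose first copy lies directly beside it, by a geometric mean of 302-fold over the 4 libraries. Of 508 known rows, 480 were matched to a RefSeq gene by name, and 45 pairs of directly neighboring miRNA genes were above 0 in all libraries and had unequal values. Pairs with a member at 0 in any library, which may differ more, were not ranked. The median difference in the 45 pairs was 5.28-fold, and the pair of miR-29b-1 and miR-29a had the rank 3 of 45 by size. Only the pairs of miR-19b with miR-92a, whose copies at different loci share their values, differed more. The pair of miR-29c-2 and miR-29b-2 differed by 3.73-fold and ranked 29. Since the copies of miR-29b have equal values, the output of each locus cannot be told apart. The preference of library preparation for some miRNA ends over others also enters such ratios. So can the authors' selection of reads by length, and the part of either was not tested.

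Within a library, the ratio of 2 members does not depend on how the library is scaled, though it depends on the conversion of the deposited values. miR-29b stood at 0.390% of the level of miR-29a in pTDE replicate 1 (95% interval 0.354 to 0.428%) and at 0.257% in pTDE replicate 2 (0.219 to 0.301%). In mTDEs it stood at 0.523% in replicate 1 (0.423 to 0.640%) and at 0.229% in replicate 2 (0.192 to 0.270%). The mTDE libraries again bracketed the pTDE libraries, and the ratio was highest in the library with the least miR-29a. The log2 ratio was lower in pTDEs by 0.13 on average, with an exact two-sided permutation p of 1 (adjusted p = 1 over 3 ratios). The difference, pTDEs minus mTDEs, was -0.43 without pTDE replicate 1 and -0.72 without mTDE replicate 2. Its sign turned without pTDE replicate 2 (0.17), without mTDE replicate 1 (0.47) and with the deposited values taken as CPM (0.010).

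miR-29c stood at 0.0772% of miR-29a in pTDE replicate 1 (95% interval 0.0617 to 0.0953%) and at 0.0555% in pTDE replicate 2 (0.0384 to 0.0774%). It stood at 0.110% in mTDE replicate 1 (0.0672 to 0.170%) and at 0.131% in mTDE replicate 2 (0.104 to 0.163%). Both mTDE libraries were above both pTDE libraries, and the interval of mTDE replicate 1 overlapped those of both pTDE libraries. How reads that fit both members were handled is not given, which limits every ratio with miR-29c. The counting intervals do not cover this. The mean log2 ratio was -10.58 ± 0.34 (SD, n = 2) in pTDEs and -9.70 ± 0.18 (SD, n = 2) in mTDEs, a difference of -0.88. The exact permutation p was 0.333 (two-sided, adjusted p = 1 over 3 ratios), which is the smallest that 2 libraries against 2 allow. Of the 230 other rows above 0 in all libraries, 32.2% had a ratio to miR-29a that did not overlap between the cell lines, so this separation is shared by many rows. With the deposited values taken as CPM the cell lines overlapped in this ratio, with a difference of -0.20 (exact two-sided permutation p = 0.667).

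miR-29c against miR-29b showed a different picture, in which a single library had the highest share. miR-29c made up 16.5% of the reads of both members in pTDE replicate 1 (95% interval 13.4 to 20.02%), 17.7% in pTDE replicate 2 (12.6 to 23.9%) and 17.4% in mTDE replicate 1 (11.0 to 25.6%). In mTDE replicate 2 it made up 36.5% (30.1 to 43.2%). With read numbers divided by 2, for molecules read from both ends, the interval of mTDE replicate 2 was 27.4 to 46.1% and overlapped that of mTDE replicate 1, 8.75 to 29.9%. The log2 ratio was lower in pTDEs by 0.75 on average (exact two-sided permutation p = 0.667, adjusted p = 1 over 3 ratios), by 0.03 without mTDE replicate 2 and by 1.47 without mTDE replicate 1.

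**Figure D3:**
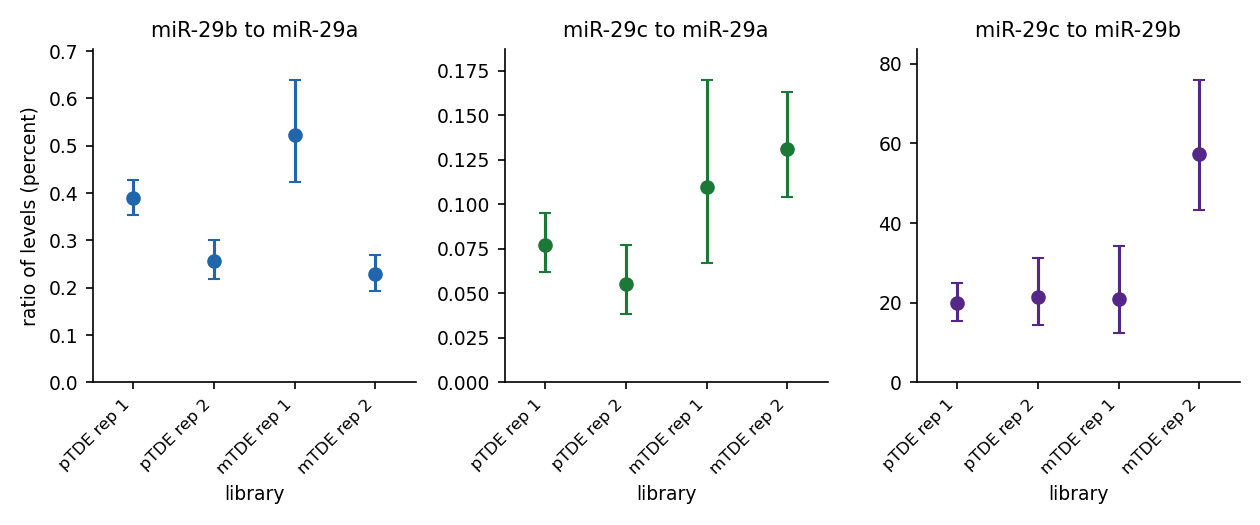
Ratio of the levels of 2 members within each library, in percent, with 95% counting intervals. miR-29b to miR-29a runs from 0.229% to 0.523%, miR-29c to miR-29a from 0.0555% to 0.131%, and miR-29c to miR-29b is near 20% in 3 libraries but 57.4% in mTDE replicate 2.

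The difference between the cell lines was tested with limma on log2(CPM + 1). The test covered the 326 rows that either cell line had above 0 in both of its libraries, and these included all 5 miR-29 rows. None of the 5 rows had an adjusted p-value under 0.05, none had an unadjusted p-value under 0.05, and none was called by limma voom. Over all 326 rows, 1.84% were called at an adjusted p-value under 0.05, all of them lower in pTDEs (1.84% lower and 0% higher), and 19.6% had an unadjusted p-value under 0.05. This direction depends on the setting. With median-ratio size factors 5 rows were called higher and 9 lower in pTDEs, with CPM taken without cfa-mir-21 13 higher and 10 lower, and with a pseudocount of 0.1 CPM 28 higher and 11 lower. In none of the miR-29 rows did the 2 pTDE libraries lie apart from the 2 mTDE libraries. Of the tested rows, 53.4% did not overlap between the cell lines. This share includes rows at 0 in both libraries of a cell line, which separate by construction. The median size of a log2 fold change over the tested rows was 0.95, and all members lay below it.

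miR-29a had a log2 fold change, pTDEs over mTDEs, of 0.31 (standard error 0.86, limma adjusted p = 0.85). This is a fold of 1.24 with a 95% interval from 0.251 to 6.15, so that a difference of several fold in either direction was not detectable with these libraries. Without logs the sign was the opposite, with a mean of 14922 ± 3926 CPM (SD, n = 2) in pTDEs and 15864 ± 15005 CPM (SD, n = 2) in mTDEs. The log2 fold change was -0.85 without mTDE replicate 1 and 1.48 without mTDE replicate 2, and neither passed the threshold (limma adjusted p = 0.34 and 0.22). It was 0.04 without pTDE replicate 1 and 0.59 without pTDE replicate 2. The median over all tested rows moved the same way, to -0.58 without mTDE replicate 1 and to 0.46 without mTDE replicate 2.

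The mean level of miR-29b was 50.1 ± 26.6 CPM (SD, n = 2) for pTDEs and 44.0 ± 23.4 CPM (SD, n = 2) for mTDEs. Its log2 fold change was 0.18 (standard error 0.92, limma adjusted p = 0.93), a fold of 1.13 with a 95% interval from 0.206 to 6.25. It became -0.38 without pTDE replicate 1 and -0.37 without mTDE replicate 1, and it was 0.74 without either of the other libraries. The mean level of miR-29c was 10.2 ± 4.90 CPM (SD, n = 2) for pTDEs and 20.3 ± 20.5 CPM (SD, n = 2) for mTDEs. Its log2 fold change was -0.55 (standard error 1.19, limma adjusted p = 0.81), a fold of 0.684 with a 95% interval from 0.0756 to 6.19. It was 0.65 without mTDE replicate 2, -1.75 without mTDE replicate 1, -1.01 without pTDE replicate 1 and -0.09 without pTDE replicate 2.

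**Figure D4:**
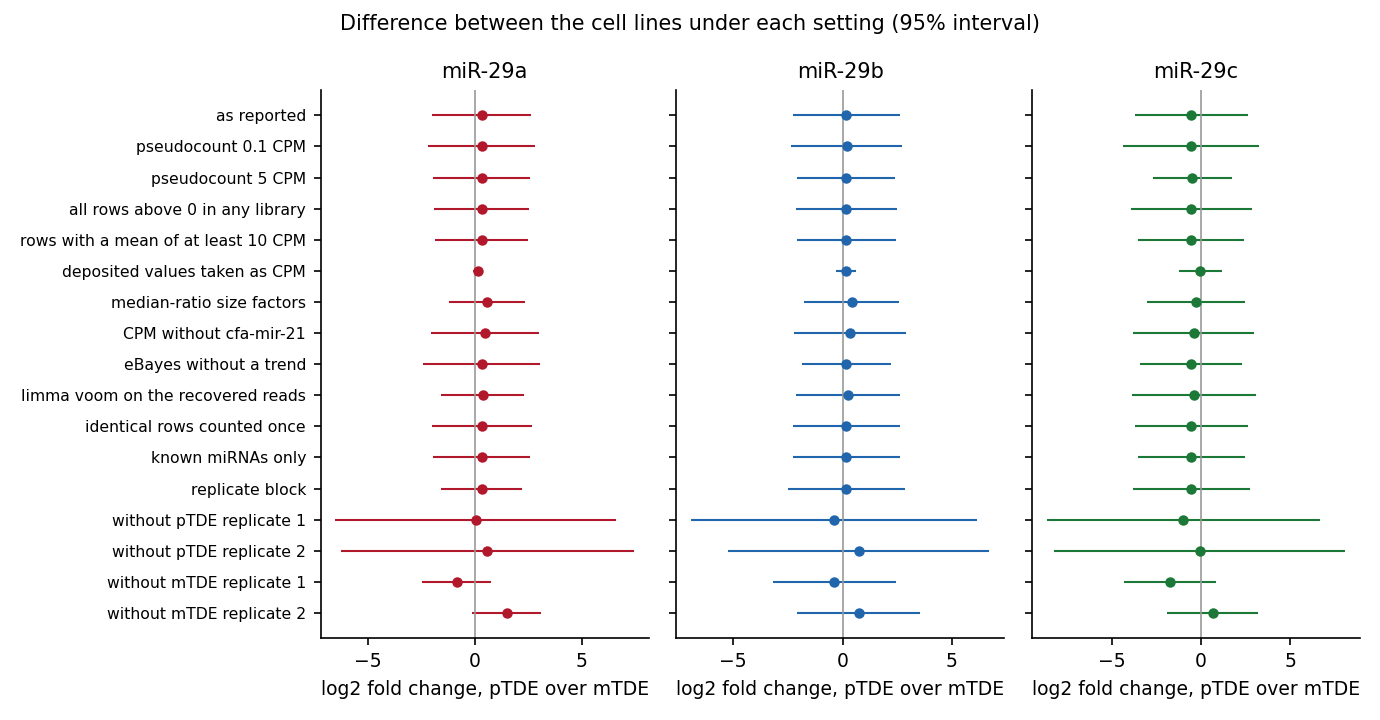
Log2 fold change of each miR-29 member, pTDEs over mTDEs, with its 95% interval from limma, as reported, under 12 other settings and with each library left out. The intervals include 0 under every setting drawn, and leaving out mTDE replicate 1 or 2 moves miR-29a from 0.31 to -0.85 or 1.48.

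The replicates of the metastatic line differed in miR-29a and miR-29c more than most miRNAs did. The level in mTDE replicate 2 was 5.04 times that in replicate 1 for miR-29a, 6.01 times for miR-29c and 2.21 times for miR-29b. On the log2(CPM + 1) scale, miR-29a was 2.33 higher in replicate 2, and 84.6% of the 240 rows with at least 10 reads in both mTDE libraries differed by less. miR-29c was 2.40 higher, more than 87.1% of these rows, and miR-29b was 1.11 higher, more than 59.6% of them. The median row was itself 0.62 higher in mTDE replicate 2, which leaves 1.72 for miR-29a, 1.78 for miR-29c and 0.50 for miR-29b. Between the pTDE replicates, all 3 members were lower in replicate 2, by 0.54 for miR-29a, 1.12 for miR-29b and 0.92 for miR-29c. The median row differed by 0.62 in size there, over 267 rows, and miR-29b exceeded 76.0% of them. The paper names 2 sequencing instruments without saying which library ran on which, and their part in these differences was not tested.

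**Figure D5:**
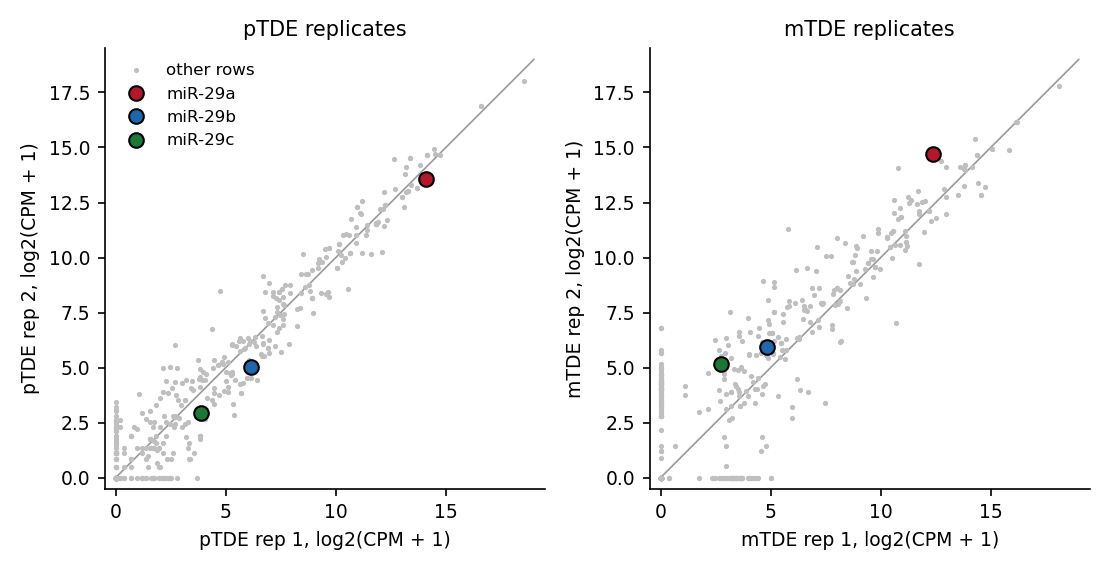
Replicate 2 against replicate 1 of each cell line, in log2(CPM + 1), with all rows in grey, the miR-29 members in color and the line of equal levels. In pTDEs the members lie below the line, by 0.54 to 1.12, and in mTDEs they lie above it, by 1.11 to 2.40.

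Marker miRNAs of other cell types were set beside this difference between the mTDE replicates, in which the median row was 1.54 times as high in replicate 2. The summed level of the mesenchymal markers (miR-143, miR-145, miR-199 and miR-214, 6 rows with equal copies summed once, none at 0 in any library) was 81.6 CPM in mTDE replicate 1 and 762 CPM in mTDE replicate 2. The erythroid marker miR-451 went from 138 to 1423 CPM, with miR-144 at 0 in all libraries. Another marker of this class, miR-486, has only a row named cfa-mir-486-3p, which the list did not match, and it went from 486 to 1397 CPM. The leukocyte markers (miR-142, miR-150 and miR-223, none at 0) went from 82.2 to 198 CPM and the hepatocyte marker miR-122 from 364 to 570 CPM, 1.57 times as high and thus close to the median row. The muscle markers (miR-1, miR-133a, miR-133b and miR-206) were all at 0 in mTDE replicate 1 and reached 133 CPM in replicate 2, where 3 of the 5 rows were at 0. In the pTDE libraries, where replicate 1 had more miR-29, it had less of the mesenchymal (589 against 926 CPM), erythroid (miR-451, 123 against 465 CPM, and cfa-mir-486-3p, 110 against 349 CPM), leukocyte (28.1 against 79.3 CPM) and muscle markers (232 against 370 CPM). It had more miR-122, at 158 against 98.5 CPM. The part of such RNA in the levels of miR-29 was not tested.

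Among miRNAs, the profile of miR-29a over the 4 libraries was matched best by cfa-mir-362, cfa-mir-19a, cfa-mir-3958, cfa-mir-18a and cfa-mir-192. Likeness was the root mean square difference of log2(CPM + 1) after each row was centered on its own mean, and it was computed for the 226 rows whose mean reached 10 CPM. It was 0.25 for cfa-mir-362 and 0.33 for cfa-mir-192, against a median of 0.98 over these rows. cfa-mir-19a, for example, was at 756 and 326 CPM in the pTDE libraries and at 212 and 1082 CPM in the mTDE libraries. cfa-mir-362 was at 151 and 154 CPM in the pTDE libraries and at 52.4 and 215 CPM in the mTDE libraries. The other members of the family were less like miR-29a than these, with 0.45 for miR-29c and 0.48 for miR-29b, and would rank 15 and 16. With 4 libraries, the likeness describes these libraries only.

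Other miRNAs known to act on collagen, TGF-beta signaling or matrix genes were counted for context. The list of repressors (the miR-30, miR-133, miR-26, miR-19, miR-101, let-7 with miR-98, miR-196, miR-200 and miR-122 rows) had 33 of its 34 rows tested, of which 3 (9.09%) were called lower and 0 higher in pTDEs by limma, against 1.84% lower and 0% higher of all rows tested. At an unadjusted p-value under 0.05 there were 5 of 33, against 19.6% of all rows tested. The 3 called were cfa-mir-200a, cfa-mir-200b and cfa-mir-200c, best known as keepers of the epithelial state. All 3 are among the epithelial markers given above. Of these, cfa-mir-200a and cfa-mir-200b were at 0 in both pTDE libraries, so they were tested only through their level in mTDEs. The list's median log2 fold change was 0.43, against -0.03 over all rows tested. The list of miRNAs known to promote matrix deposition (miR-21, miR-145, miR-192, miR-199 and miR-214) had 7 of 7 rows tested and 0 called, against 1.84% of all rows tested, and 0 at an unadjusted p-value under 0.05, against 19.6%. Its median log2 fold change was 0.34, and 0.13 when the equal copies of miR-199 were counted once. For the repressors the median with equal copies counted once was 0.41.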

How the data were processed

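Small RNA of EVs was measured in 2 CHMp (pTDE) and 2 CHMm (mTDE) libraries, grouped by their labels. The paper names HiSeq and NovaSeq instruments and different read lengths, without saying which library was run on which. The authors trimmed and length-selected reads with cutadapt, checked them with FastQC, merged forward and reverse reads, and counted annotated and newly predicted miRNAs using miRDeep2 and the CanFam3.1 genome; versions are not given in the sources used here. The deposited values, which the authors describe as CPM, were handled as a score. As deposited, they already total from 999989 to 1000010 per library. Columns with the authors' own comparison were deposited too (log2 fold change, log2 CPM, a likelihood ratio score, p-value and false discovery rate) and were not used.

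Each value was converted to CPM as 2 to the power (value/s), minus 1, with s solved per library so that the column totals 1000000 (s from 426 to 495). The worth of 1 read (0.159 to 0.429 CPM) was the largest step of which all distinct values under 20 CPM were whole multiples, give or take 0.005 CPM and what rounding to whole deposited values allows. Reads are CPM over this step, rounded. Since the values are no raw counts, limma 3.58.1 (R 4.3.3) with eBayes and a mean-variance trend was fitted to log2(CPM + 1), with Benjamini-Hochberg adjustment over 326 rows and prior degrees of freedom of 2.4. The pseudocount of 1 CPM understates the changes of rare rows. Ratios were compared by exact permutation. Python 3.11.15, numpy 2.4.6, pandas 2.3.3 and scipy 1.17.1 were used, and the conversion and the fit were tested on simulated data.

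The members and lists were chosen with earlier results of these data known. The rows named beside the family are the 5 most like miR-29a, the rows next to it in level, cfa-mir-21, the list members called and the marker miRNAs of other cell types. Of the markers, cfa-mir-486-3p was included later, with its values known. The comparisons with other lettered miRNAs and with neighboring gene pairs, and the rows named in them, were chosen after the values were seen. Alternatives were other pseudocounts, row filters, scalings and fits, the deposited values taken as CPM, a replicate block, and leaving out each library. Mature sequences were not used here.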

Additional observations from a re-analysis of the deposited data

How the results depend on the processing

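No miR-29 row was called under any of the 12 other fits or with a library left out, and the log2 fold changes kept their sign in all 12. They ranged from 0.16 to 0.56 for miR-29a (limma adjusted p from 0.40 to 0.87), from 0.17 to 0.42 for miR-29b (0.56 to 0.94) and from -0.56 to -0.04 for miR-29c (0.77 to 0.95). With each library left out they ranged from -0.85 to 1.48, from -0.38 to 0.74 and from -1.75 to 0.65, and the sign changed in 1, 2 and 1 of the 4 fits. In such a fit the lone library is assumed to vary like the other cell line. The difference between the cell lines in the log2 ratio of miR-29b to miR-29a was -0.13, and 0.010 with the deposited values taken as CPM (the cause was not tested), and ranged from -0.72 to 0.47 with a library left out. That of miR-29c to miR-29a, -0.88, ranged from -1.12 to -0.64 with a library left out and was -0.20 where deposited values were read as CPM. That of miR-29c to miR-29b, -0.75, with its alternatives chosen after seeing the data, ranged from -1.47 to -0.03 and was -0.21 there. Dividing read numbers by 2, an alternative chosen after seeing the data, widened the counting intervals. The family shares of 1.50% in pTDEs and 1.59% in mTDEs became 2.26% and 2.08% of the CPM without cfa-mir-21, as fewer reads share the total. They were 1.13% and 1.04% with the deposited values taken as CPM, so that the order of the means turned in both settings. The shares with a library left out ran from 1.22% to 1.78% (pTDEs) and from 0.529% to 2.66% (mTDEs).

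Scaling by median ratios shifted the median over all rows by 0.25 in log2 fold change, to 0.22. Over all rows, 6 were called, 0 higher and 6 lower in pTDEs, and from 5 to 50 under the other fits, with 39 higher and 11 lower for the deposited values taken as CPM, 4 and 9 without a trend or with known miRNAs only, and 5 and 11 with voom. The fits without mTDE replicate 1 or 2 called 0 rows and those without pTDE replicate 1 or 2 called 41. In the fit with a replicate block, the log2 fold changes were 0.31, 0.18 and -0.55 and 7 rows of 326 were called in place of 6. The labels do not say that a number pairs libraries, and the deviations of same-numbered libraries correlated by 0.15.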
